A study of Bos taurus with 2 samples.

Results

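In the mammary gland of a lactating Holstein cow, 666 cell barcodes carried RNA of luminal epithelium with a low share of RNA from 7 milk genes. These barcodes were chosen by a rule on raw UMIs, the counts of distinct RNA molecules. A barcode needed at least 300 detected genes and 5 UMIs of EPCAM, KRT8 and KRT18 together, with at least 2 of these 3 genes found. It could hold at most 1 UMI of the T cell genes CD3E, CD3D and CD3G. The 7 milk genes CSN1S1, CSN1S2, CSN2, CSN3, LALBA, PAEP and GLYCAM1 had to stay under 10% of its UMIs. The 666 barcodes are 4.19% of the 15897 barcodes of the adult library (exact binomial 95% interval, 3.88 to 4.51), and the series holds 29669 barcodes. They are called non-secreting luminal cells here.

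Luminal epithelium lines the ducts and alveoli of the mammary gland, inside a layer of contractile basal cells. In lactation the alveolar luminal cells make casein, whey protein, lactose and fat. Ducts and resting alveoli keep luminal cells that make little milk, among them progenitor-type cells with KIT and ELF5 and hormone-sensing cells with receptors for oestrogen, progesterone and prolactin.

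The study compared mammary tissue of an adult Holstein dairy cow in lactation with tissue of a newborn, with 1 library for each stage and no label saying how many animals entered it. Fat was trimmed away, the pieces were loosened in EDTA and then dissociated enzymatically and strained, with dead cells removed where viability was low. Droplet libraries of the 10x Genomics 3' kit (version 3 chemistry) were sequenced. No other treatment or genetic change is labelled.

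With 1 library per stage no replicate check and no test was possible. All results below compare cell sets within the adult library and have no p-value. Intervals of 95% cover counting error only, since cells of 1 library are not replicates. The adult library held 85388618 UMIs and the newborn library 65597671. The study states 24472 cells, while 28633 barcodes of the files had 300 or more genes. The libraries shared 57 barcode sequences, 2 of which belong to non-secreting luminal cells.

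The same rule found 0 of 13726 newborn barcodes with 300 or more genes, which allows a share of up to 0.0219%. The whole newborn library held 19 UMIs of EPCAM, KRT8 and KRT18, spread over 12 barcodes, with at most 6 in any of them. The non-secreting luminal cells were therefore described in the adult only, and no stage comparison could be made for them.

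A pair of sets of the same adult library served for comparison. The milk-secreting epithelial cells were 174 barcodes that met the same rule but with the 7 milk genes at 10% of UMIs or more. The T cells were 5404 barcodes with at least 2 CD3 UMIs and none of EPCAM, KRT8 and KRT18, and their milk and other epithelial counts serve as a guide to the free RNA that droplets take up. Requiring 0 UMIs of 3 epithelial genes biases this guide low, and T cells make some of the compared genes themselves. Of the 840 epithelial barcodes, the non-secreting cells were 79.3% (76.4 to 82.0). This is not their share of the epithelium, because 203 of 351 barcodes with at least 50% milk UMIs and at most 1 CD3 UMI held too few UMIs of EPCAM, KRT8 and KRT18 to be counted.

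The milk share, which the rule used, had few cells near the limit but no gap there, and 26 epithelial barcodes lay from 10% to 50%. It had a median of 0.888% in non-secreting luminal cells, with the lowest at 0.0650% and the highest at 9.14%. In milk-secreting cells the median was 74.6%, and in T cells it was 2.30%. The next value inside the limit was 8.79%, and the first values outside it were 10.1% and 10.3%. Only 11 non-secreting cells were at 5% or more, and 8 milk-secreting cells were under 15%. At the other limit, 15 cells had exactly 5 UMIs of the 3 epithelial genes, 14 further barcodes had 4, and the median was 43.

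**Figure D1:**
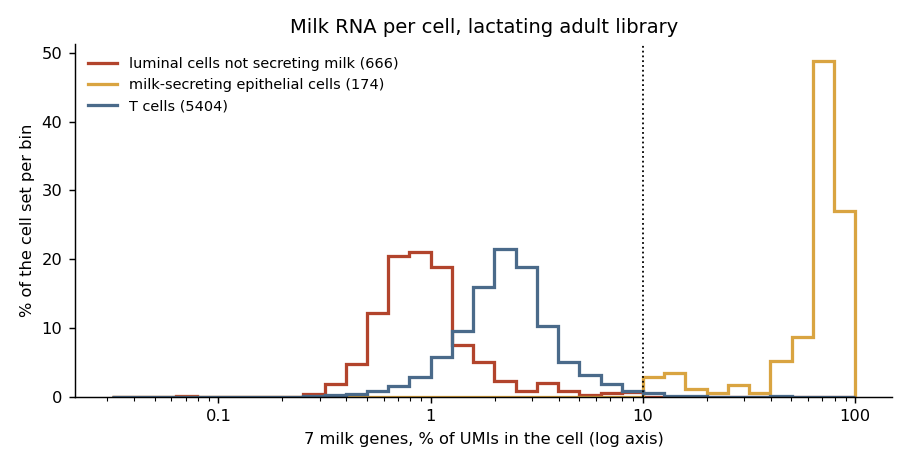
Share of each cell's UMIs from the 7 milk genes (log axis) against the percentage of each cell set in bins of equal log width, for 666 non-secreting luminal cells, 174 milk-secreting cells and 5404 T cells. The dotted line is the 10% limit of the rule; the non-secreting cells centre on 0.888%, below the 2.30% of T cells, and the milk-secreting cells on 74.6%.

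The non-secreting cells were deep, with a median of 12198.5 UMIs and 2902.5 genes, against 67367.5 UMIs and 3302.5 genes in milk-secreting cells. T cells had a median of 2931 UMIs and 956 genes. Levels are given as CPM, the UMIs of a gene summed over a cell set per 1000000 UMIs that do not come from the 7 milk genes. Shares of cells with a UMI were taken after each cell was thinned to 1000 UMIs, which left out 5 non-secreting cells.

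The label of luminal epithelium held for genes that the rule had not used. KRT19, a keratin of simple epithelium, stood at 6771 CPM in non-secreting luminal cells, against 4447 CPM in milk-secreting cells and 103 CPM in T cells. KRT7, another luminal keratin, stood at 3450, 802 and 39.6 CPM in the same order of sets. The tight junction gene CLDN4 had 3538, 1519 and 36.7 CPM, and the epithelial transcription factor EHF had 532, 481 and 7.68 CPM. Basal markers were divided. The 12 listed for basal or myoepithelial cells summed to 4197 CPM in non-secreting cells, against 259 CPM in milk-secreting cells and 59.7 CPM in T cells. KRT14 reached 2.11 CPM, and TP63, the master regulator of basal epithelium, was found in 4 of 666 cells at full depth, with a level of 0.351 CPM. KRT5 and KRT15, keratins often used as basal markers, were nonetheless present at 791 and 3103 CPM.

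LCN2, KRT5 and WFDC2, which had been named as marks of these cells, did not cover all of them. LCN2 encodes lipocalin 2, which binds bacterial siderophores. It was at 0 in 160 of the 666 cells, its median was 33.2 per 10000 non-milk UMIs, and its highest value was 412. After thinning, LCN2 was found in 65.7% of the cells (61.9 to 69.3), KRT5 in 35.9% (32.2 to 39.6) and WFDC2 in 61.1%. In T cells the shares were 5.61%, 0.818% and 2.76%. At full depth the shares in non-secreting luminal cells were 75.98%, 75.5% and 81.7%, against 15.4%, 2.905% and 7.88% in T cells. The non-secreting luminal cells were thus not uniform, and clustering of the 666 cells on their own split them.

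Leiden clustering gave 9 clusters, numbered E1 to E9 by size. It used the 2000 most variable genes of these same cells. The genes that tell clusters apart are therefore descriptions and carry no test. E4 and E6 (158 cells, 23.7% of the 666, 20.5 to 27.1) had under 10% of the LCN2 level of all 666 cells and are called LCN2-poor. This subgroup is not found (share 0%) when cells with 2 or more UMIs of other lineages are left out, which keeps 149 of the 666 cells. E1, E2, E5 and E7 (355 cells, 53.3%) are called LCN2-rich. E3, E8 and E9 (153 cells, 23.0%) also held at least 4 markers of another lineage at 4 times or more the level of the other cells, and are called mixed.

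The mixed clusters differ in what they hold. E3 (94 cells) carried the macrophage genes C1QA, C1QB and C1QC, which encode complement C1q, at 76.9, 57.8 and 63.1 CPM, and its 9 measured myeloid markers summed to 322.5 CPM, against 93.5 CPM in the other cells and 9245 CPM in 171 myeloid barcodes of the library. E8 (43 cells) held 8 of 9 measured endothelial markers at 4 times or more the level of the other cells, among them LYVE1, a hyaluronan receptor of lymphatic endothelium, at 474 CPM, and the list summed to 2125 CPM, against 8573 CPM in 2079 endothelial barcodes. E9 (16 cells) held T and NK genes such as IL7R, the interleukin-7 receptor, at 210 CPM, and GNLY, the cytotoxic granule protein granulysin, at 570 CPM. A doublet score marked 31 of 43 cells in E8, 8 of 16 in E9 and 21 of 94 in E3. Over all 666 cells it marked 84 (12.6%), against 11.9% of adult barcodes. Whether the mixed clusters are droplets with more than 1 cell was not tested; the subgroup comparison below leaves them out.

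Several genes of secreted proteins stood far higher in LCN2-rich than in LCN2-poor cells. LCN2, whose level had defined the groups, stood at 62.3 CPM in LCN2-poor and 8608 CPM in LCN2-rich cells. LTF, which encodes the iron-binding milk protein lactoferrin, stood at 1100 and 15263 CPM. SPP1, which encodes osteopontin, stood at 596 and 15607 CPM. In milk-secreting cells LTF and SPP1 stood at 19115 and 13886 CPM, so these genes do not set the LCN2-rich cells apart from them. LTF and SPP1 were the most abundant protein-coding messages of the 666 cells outside the milk, mitochondrial and ribosomal genes. WFDC2, a whey acidic protein domain gene, stood at 233 CPM in LCN2-poor and 4634 CPM in LCN2-rich cells, and the acute-phase gene SAA3 at 33.1 and 3666 CPM. KRT15 stood at 311 and 4279 CPM. In thinned cells LCN2 was found in 7.14% of LCN2-poor cells (3.62 to 12.4), an interval that holds the 5.61% of T cells, and in 89.0% of LCN2-rich cells. At full depth LCN2 was found in 26.6% of LCN2-poor cells and 15.4% of the shallower T cells, at 62.3 and 48.3 CPM. SPP1 was found in 16.2% of thinned LCN2-poor cells and 21.1% of thinned T cells, but at 596 and 231 CPM, so no order is read from these shares.

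**Figure D2:**
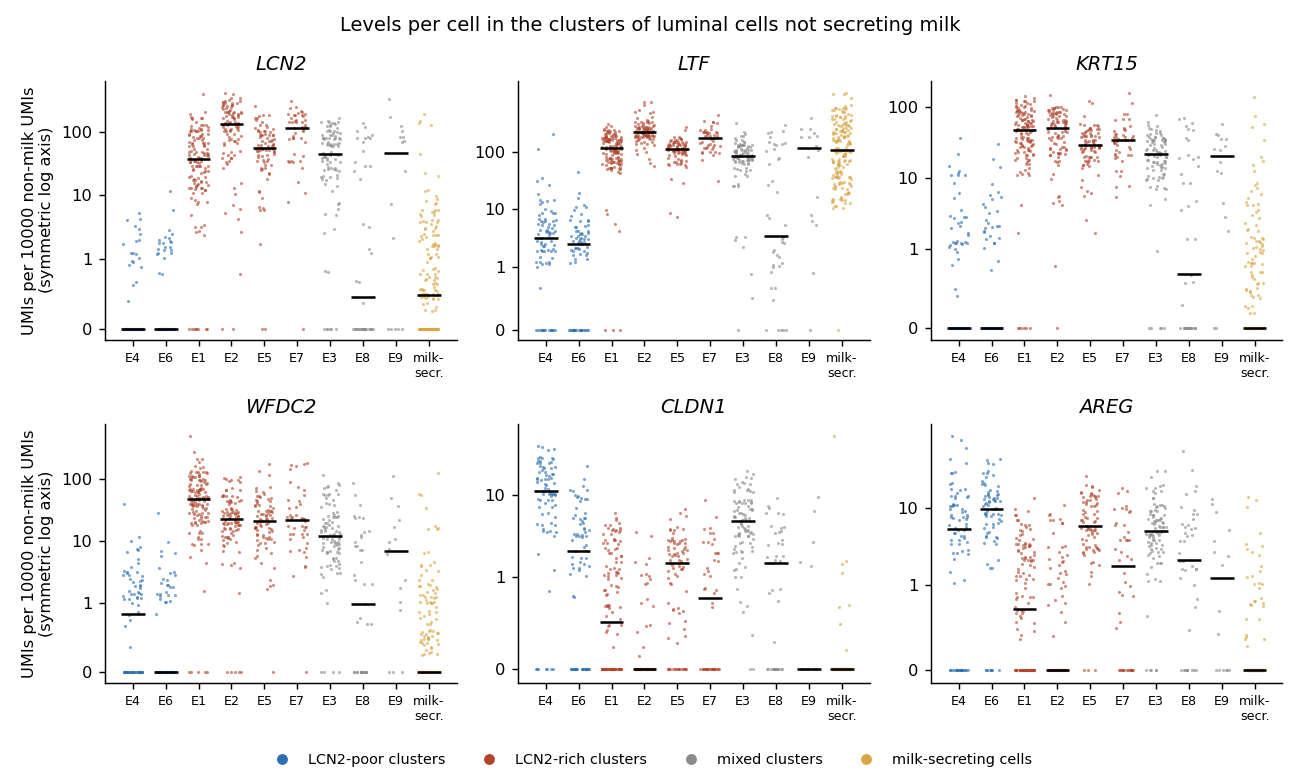
UMIs per 10000 non-milk UMIs (symmetric log axis) of LCN2, LTF, KRT15, WFDC2, CLDN1 and AREG in each non-secreting luminal cell, by cluster, and in the 174 milk-secreting cells; bars are medians. The LCN2-poor clusters E4 and E6 have a median of 0 for LCN2 and KRT15; E4 has the highest CLDN1 median (11.05) and E6 the highest AREG median (9.75).

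Levels of the secreted genes went together from cell to cell. Across the 666 cells, Spearman's rho between levels per cell was 0.78 for LCN2 and LTF, 0.81 for LTF and SPP1 and 0.68 for LCN2 and KRT15. It was -0.43 for LTF and CLDN1 and 0.47 for CLDN1 and AREG. These cells share 1 library and a common free RNA, so the values only describe the scatter. Without the mixed clusters (513 cells) the same pairs had 0.77, 0.81, 0.68, -0.49 and 0.44.

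LCN2-poor cells had other genes high. CLDN1, a sealing tight junction protein, stood at 918 CPM in LCN2-poor and 122 CPM in LCN2-rich cells, a ratio of 7.54 (6.87 to 8.28). AREG, the EGF receptor ligand amphiregulin, stood at 1219 and 382 CPM, a ratio of 3.19 (2.99 to 3.41). After thinning, CLDN1 was found in 77 of 154 LCN2-poor and 31 of 354 LCN2-rich cells, against 0.647% of T cells, and AREG in 49.4% and 20.3%, against 1.18% of T cells. KRT8 and KRT18, which chose the cells, stood at 3615 and 2343 CPM in LCN2-poor and at 1439 and 566 CPM in LCN2-rich cells.

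In whichever of the LCN2-poor and LCN2-rich sets was higher, 2887 genes reached 50 CPM and 20 UMIs. By the size rule of 4-fold or more, 115 (3.98%) were higher in LCN2-poor and 123 (4.26%) lower. The largest ratio was that of CA4, a membrane-bound carbonic anhydrase, at 311 CPM in LCN2-poor and 3.50 CPM in LCN2-rich cells (89.0-fold, 57.4 to 145). It was followed by MGC151921, which has no annotated role here, at 6362 and 106 CPM pooled over cells (80 of 158 LCN2-poor cells had none, and the highest had 1178 per 10000), and by the protease inhibitor gene SERPINA3-1 with a ratio of 34.7. BDA20, a lipocalin known as a cattle dander allergen, stood at 1939 and 60.5 CPM (32.1-fold, 28.7 to 35.9). SERPINA5, SERPINA11, TMCC3, HEPACAM2, the claudin CLDN10 and FAM13A completed the 10, with ratios of 11.1 to 15.4.

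In the other direction, LCN2 was lowest in ratio, 138-fold lower in LCN2-poor than in LCN2-rich cells (111 to 175). Its level had defined these groups, so a large LCN2 gap was fixed in advance. M-SAA3 and SAA3, mammary and general serum amyloid A genes, were 133-fold and 111-fold lower. CHODL, PDZK1IP1 and LUZP2 had 1 UMI each in the LCN2-poor cells, so their inverse ratios of 91.7 (16.4 to 3631), 85.8 (15.3 to 3398) and 80.1 (14.3 to 3172) are wide. SFRP1, a secreted Wnt antagonist, was 71.8-fold lower (28.0 to 264), and the matrix genes BGN, biglycan, and MGP, matrix Gla protein, were 64.4-fold and 64.2-fold lower. ANKRD1, an ankyrin repeat protein, was 58.5-fold lower.

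Hormone-response genes stood higher in the LCN2-poor cells as a list. Of 13 measured genes, 7 were 2-fold or more higher and 1 lower, with a median log2 ratio of 1.08. Over all 9854 genes measured (20 or more UMIs in both sets together), 12.1% were 2-fold or more higher and 12.3% lower, with a median of 0.13. ESR1, the oestrogen receptor, stood at 27.6 CPM in LCN2-poor and 5.66 CPM in LCN2-rich cells (4.87-fold, 2.95 to 8.05). PRLR, the prolactin receptor, stood at 310 and 147 CPM, and GHR, the growth hormone receptor, at 78.8 and 11.8 CPM. WNT4, a progesterone-regulated Wnt ligand in mice, stood at 54.4 and 7.16 CPM, and STC2, stanniocalcin 2, at 140 and 26.2 CPM. PGR, the progesterone receptor, stood at 13.4 and 9.33 CPM, and its ratio of 1.44 had an interval of 0.782 to 2.51 that includes no difference.

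The 12 markers listed for hormone-sensing luminal cells summed to 1929 CPM in LCN2-poor and 795 CPM in LCN2-rich cells, and to 1466 CPM in milk-secreting cells. AREG alone made up most of the sum in LCN2-poor cells. FOXA1, a pioneer factor for the oestrogen receptor, was 6.73-fold higher in LCN2-poor than in LCN2-rich cells (5.10 to 8.91). TFF3, a trefoil peptide on that list, went the other way at 13.4 and 119 CPM. The list for luminal progenitor cells summed to 1278 CPM in LCN2-poor and 16289 CPM in LCN2-rich cells, of which LTF made up most, and to 24028 CPM in milk-secreting cells. ELF5, the transcription factor of alveolar and progenitor luminal cells, stood at 43.4 and 772 CPM, a 17.8-fold lower level in LCN2-poor cells (13.7 to 23.7). ALDH1A3, a retinal-oxidising enzyme of luminal progenitors in humans, stood at 1.58 and 56.0 CPM, and KIT, the stem cell factor receptor, at 5.52 and 27.2 CPM. ESR1 was found in 2.60% of thinned LCN2-poor cells (17.7% at full depth) and FOXA1 in 9.09% (48.7%).

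Innate defence genes stood lower in LCN2-poor cells as a list. The list holds LCN2, which had defined the groups, so the lower level of LCN2 itself was fixed in advance. Of 17 measured genes, 13 were 2-fold or more lower in LCN2-poor cells and 2 higher, with a median log2 ratio of -3.79. Over all genes, 12.3% were lower and 12.1% higher. CHI3L1, a chitinase-like glycoprotein, stood at 41.8 CPM in LCN2-poor and 2115 CPM in LCN2-rich cells, and S100A9, a subunit of calprotectin, at 7.88 and 373 CPM. The 2 exceptions were SLPI, a secreted leukocyte protease inhibitor, at 45.7 and 2.17 CPM, and PGLYRP1, a peptidoglycan recognition protein, at 70.2 and 13.8 CPM. Among 14 complement genes 9 were 2-fold or more lower and 1 higher. C3, the central complement component, stood at 52.0 CPM in LCN2-poor and 759 CPM in LCN2-rich cells. CD46, a complement regulator on the cell surface, was the exception at 478 and 134 CPM.

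All 5 measured genes of the MHC class II list were 2-fold or more lower in LCN2-poor cells (all genes, 12.3% lower and 12.1% higher). CD74, the invariant chain of class II, stood at 85.1 CPM in LCN2-poor and 378 CPM in LCN2-rich cells, and BOLA-DRA, a class II alpha chain, at 44.1 and 111 CPM. The myeloid marker list was at 105 CPM in LCN2-poor and 85.8 CPM in LCN2-rich cells, and its part in the class II levels was not tested. None of 11 MHC class I genes passed 2-fold in either direction. Chemokines were divided. CXCL5, a neutrophil attractant, stood at 246 and 23.0 CPM and CCL20, which attracts CCR6-bearing cells, at 37.1 and 4.50 CPM. CX3CL1, fractalkine, stood at 14.2 and 171 CPM. Of 8 genes of the EGF family and its receptors, 4 were 2-fold or more higher in LCN2-poor cells and 1 lower, among them the ligands EREG (epiregulin), 6.42-fold higher, and HBEGF (heparin-binding EGF) at 184 and 41.3 CPM.

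Within the LCN2-poor cells, E4 (82 cells) and E6 (76 cells) also differed. E4 had the highest KRT8 (5371 CPM), CLDN1 (1341 CPM) and CLDN4 (6949 CPM) of all 9 clusters. F3, tissue factor, stood at 1028 CPM in E4 and 352 CPM in E6, and CA4 at 480 and 95.2 CPM. E6 led with SLPI (102 CPM), GRP, gastrin-releasing peptide (843 CPM, against 271 CPM in E4), BDA20 (2633 CPM) and the transcription factors TFAP2B (106 CPM) and SPDEF (61.1 CPM). PRLR stood at 207 CPM in E4 and 442 CPM in E6, ESR1 at 16.9 and 41.3 CPM, and STC2 at 77.3 and 219 CPM. AREG stood at 1153 and 1302 CPM pooled over cells, with medians of 5.315 and 9.75 per 10000 non-milk UMIs.

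DCN, the matrix proteoglycan decorin and a fibroblast marker, was seen in LCN2-poor cells at 370 CPM, against 39.0 CPM in LCN2-rich cells. It was present with 2 or more UMIs in 75 of 158 LCN2-poor cells and in 44 of 5404 T cells (0.814%). The 8 fibroblast markers summed to 388 CPM in LCN2-poor and 78.3 CPM in LCN2-rich cells, and PDGFRB was at 0 in all 666. B and plasma cell markers summed to 144 CPM in LCN2-poor and 25.0 CPM in LCN2-rich cells, with 190 CPM in E4, where JCHAIN, the joining chain of antibodies, stood at 117 CPM. The part of fibroblast and plasma cell RNA in the subgroup was not tested.

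The 4 LCN2-rich clusters also differed among themselves. E1 (132 cells) had the highest KRT5 (1988 CPM), KRT17 (605 CPM), WFDC2 (6832 CPM) and KRT19 (11111 CPM). Its leading genes by fold were TAGLN, the actin-binding protein transgelin, at 56.6 CPM against 4.29 CPM in the other cells, and CALCB, a calcitonin gene-related peptide, at 145 against 17.7 CPM. The antimicrobial peptide gene LAP stood at 298 CPM in E1, against 45.7 CPM in the other cells. Among basal genes, KRT14 stood at 4.88 CPM in E1, TP63 at 1.46 CPM and the smooth muscle actin gene ACTA2 at 108 CPM. The fibroblast collagen genes COL3A1 and COL1A2 were also 4-fold or more higher in E1 than in the other cells, at 10.7 and 6.34 CPM, and their part in the TAGLN and ACTA2 levels was not tested.

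E2 (96 cells) had the highest LCN2 (15012 CPM), LTF (24044 CPM) and SPP1 (23463 CPM), with ELF5 at 1078 CPM. Its leading genes were CRISP3, a cysteine-rich secretory protein, at 108 against 9.71 CPM in the other cells (and 2872 CPM in milk-secreting cells), TFF3 at 285 against 71.0 CPM, and KIT at 52.3 against 19.2 CPM. E7 (46 cells) led with the granulocyte growth factor CSF3 at 141 against 4.75 CPM, and with the neutrophil attractants CXCL2 at 4413 against 1023 CPM and CXCL3 at 17813 against 4345 CPM. E5 (81 cells) was deep, with a median of 25527 UMIs, and led with CENPF, a kinetochore protein of dividing cells, at 59.5 against 2.92 CPM. The CENPF level is pooled over cells, and 1 of the 81 cells had 3 or more UMIs of the 5 division genes named below.

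Cells with several division genes were rare. Of the 666 cells, 2 (interval of the share, 0.0364% to 1.08%) had 3 or more UMIs of the division genes MKI67, TOP2A, CDK1, CCNB1 and BIRC5, against 65 of 5404 T cells (1.20%, 0.930 to 1.53), although T cells were shallower. MKI67, a nuclear protein of cycling cells, stood at 1.67 CPM in non-secreting luminal cells and 44.3 CPM in T cells.

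Apart from CSN3, milk messages per non-secreting cell were close to those per T cell. CSN2, the beta-casein gene, had 28.3 UMIs per non-secreting luminal cell, against 13906 per milk-secreting cell and 20.2 per T cell. CSN1S1, the alpha-s1-casein gene, had 33.7, 17096 and 24.2 UMIs per cell, and PAEP, the beta-lactoglobulin gene, had 22.2, 10301 and 18.3. Per CSN2 UMI, CSN1S1 stood at 1.19 in non-secreting cells, 1.23 in milk-secreting cells and 1.20 in T cells. Free RNA of 1 source would keep 1 ratio in every cell type, but milk-secreting cells had similar ratios to T cells. CSN1S2 stood at 0.169 in milk-secreting and 0.164 in T cells, and GLYCAM1 at 0.214 and 0.249. The ratios therefore cannot tell free RNA from milk RNA made at a low level. In non-secreting cells CSN1S1, PAEP, GLYCAM1, CSN1S2 and LALBA stayed within 1.5 times of their T cell ratio.

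CSN3, the gene of kappa-casein, which caps the casein micelle, did not. It had 49.1 UMIs per non-secreting luminal cell and 1.74 UMIs per CSN2 UMI (1.71 to 1.77), against 0.364 in milk-secreting cells and 0.349 (0.345 to 0.353) in T cells. In LCN2-poor cells the ratio was 0.403 (0.379 to 0.428) with 9.49 CSN3 UMIs per cell, and in LCN2-rich cells it was 2.25 (2.19 to 2.30) with 59.7. Each LCN2-rich cluster was at 1.99 or more, with 2.53 in E2, while E4 and E6 were at 0.420 and 0.378. The mixed E8 was at 0.816. Across the 666 cells CSN3 went with LCN2 (Spearman's rho 0.65) and with LTF (0.73), while CSN2 did not (-0.33 with LCN2). CSN3 was part of the milk share that chose the cells, so this is a description of them.

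**Figure D3:**
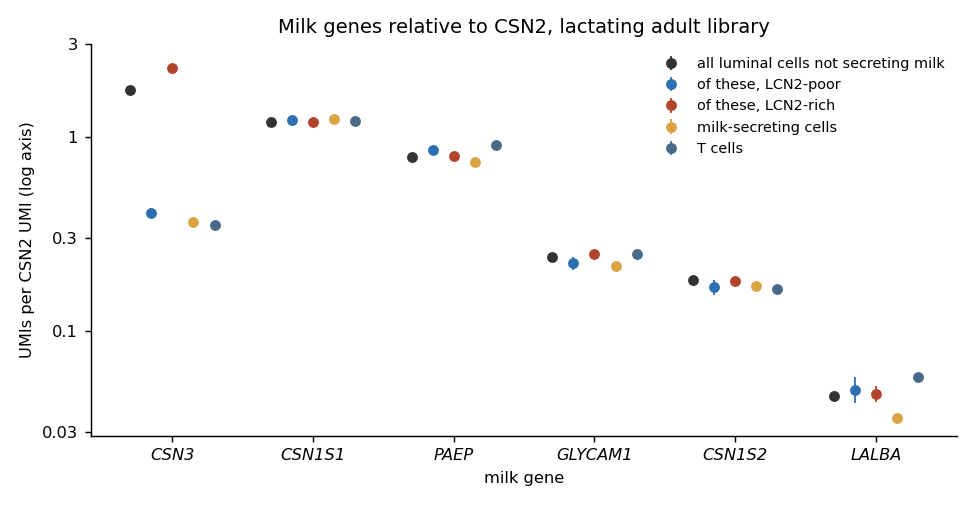
UMIs of 6 milk genes per CSN2 UMI (log axis) in all non-secreting luminal cells, their LCN2-poor and LCN2-rich subgroups, milk-secreting cells and T cells, with exact 95% intervals of counting error (mostly smaller than the points). CSN3 is at 1.74 in the non-secreting cells and 2.25 in the LCN2-rich ones, against 0.364 in milk-secreting cells and 0.349 in T cells, while the other 5 genes lie close together in all sets.

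Against milk-secreting cells, most milk fat genes stood lower in the non-secreting luminal cells, whose low milk protein RNA the rule had fixed. Counts were scaled without the 7 milk genes. Of 2862 genes that reached 50 CPM and 20 UMIs in either set, 192 (6.71%) were 4-fold or more higher in non-secreting cells and 157 (5.49%) lower; scaled by the median ratio of genes, 162 were higher and 218 lower. The rule split these sets on milk share, so the contrast describes them and tests nothing. The median log2 ratio of all 11297 genes measured was 0.30, and it was 2.27 when UMIs were scaled to all genes, milk genes included.

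**Figure D4:**
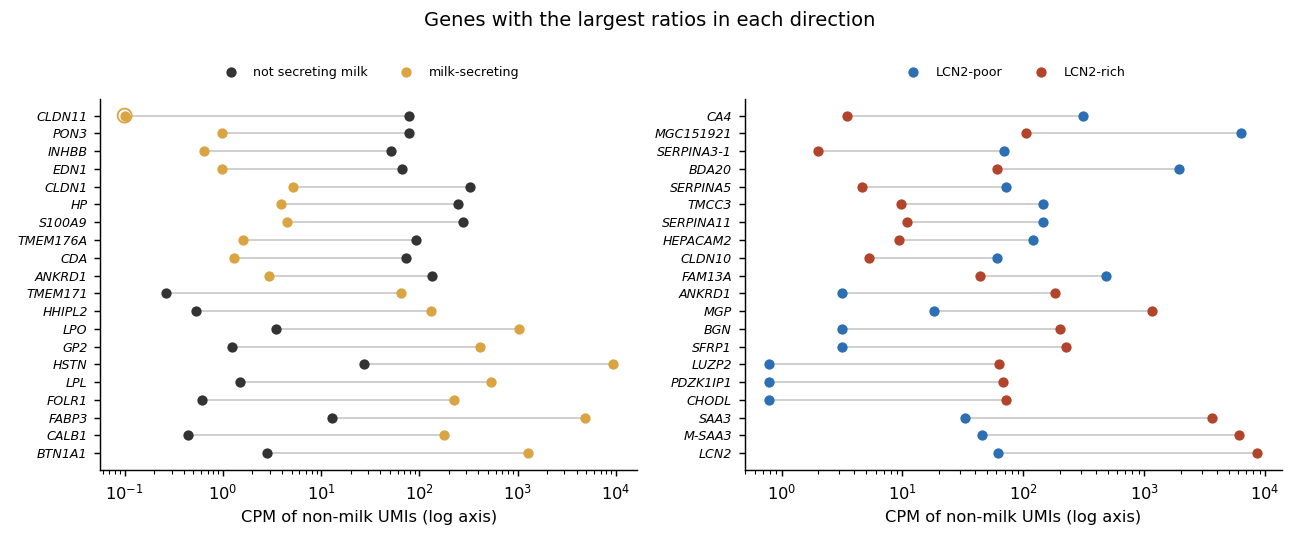
CPM of non-milk UMIs (log axis) of the 10 genes with the largest ratio in each direction: left, non-secreting luminal cells and milk-secreting cells; right, LCN2-poor and LCN2-rich cells. The ringed point is CLDN11, with 0 UMIs in milk-secreting cells, drawn at the left edge; BTN1A1 is at 2.81 CPM in non-secreting and 1285 CPM in milk-secreting cells.

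Of 19 measured milk fat genes, 18 were 2-fold or more lower in non-secreting cells and 1 higher, with a median log2 ratio of -3.00, where 26.1% of all genes were 2-fold or more higher and 9.48% lower. BTN1A1, butyrophilin of the milk fat globule membrane, stood at 2.81 CPM in non-secreting and 1285 CPM in milk-secreting cells, 457-fold lower (323 to 669). FABP3, a fatty acid carrier, stood at 13.0 and 4884 CPM, and in T cells, at 78.7 CPM, it was higher than in the non-secreting cells. LPL, the lipase that takes up fatty acids from lipoproteins, stood at 1.49 and 537 CPM. SCD, the stearoyl-CoA desaturase, stood at 31.8 and 1853 CPM. FASN, fatty acid synthase, and XDH, xanthine oxidoreductase of the fat globule membrane, were only 6.96-fold and 8.00-fold lower, at 2.43 and 3.19 UMIs per non-secreting cell against 0.12 and 0.20 per T cell. The exception was ELOVL6, a fatty acid elongase, at 13.2 CPM in non-secreting and 0.972 CPM in milk-secreting cells, from 3 UMIs in the milk-secreting set.

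Other genes lowest in ratio were the calcium buffer CALB1 (408-fold lower), the folate receptor FOLR1 (366-fold), the bovine milk peptide gene HSTN (343-fold, 306 to 384), the granule glycoprotein GP2 (340-fold) and the lactoperoxidase gene LPO (297-fold), followed by HHIPL2 and TMEM171. Of 18 lactose and transport genes, 8 were 2-fold or more lower and 3 higher (all genes, 9.48% and 26.1%). Of 20 genes of protein entry into the endoplasmic reticulum, 4 were 2-fold or more lower and none higher, with a median log2 ratio of -0.63. SSR3, a subunit of the translocon-associated complex, stood at 211 CPM in non-secreting and 710.5 CPM in milk-secreting cells. SSR4, of the same complex, did not pass at 1040 CPM in non-secreting and 1922 CPM in milk-secreting cells.

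Keratins and junctions stood higher in the non-secreting cells. Of 7 measured genes on the list of basal and stratified keratins and their anchors, 6 were 2-fold or more higher and 1 lower, with a median log2 ratio of 3.73. KRT5 was 32.1-fold higher (25.6 to 40.8), KRT15 16.7-fold (15.3 to 18.1) and KRT17 11.1-fold (8.38 to 15.1), while KRT10 stood at 19.2 and 120 CPM. Of 19 adhesion and junction genes 11 were higher and none lower (all genes, 26.1% and 9.48%). CLDN1 stood at 331 CPM in non-secreting and 5.19 CPM in milk-secreting cells, and the desmosome linker DSP at 108 and 17.2 CPM. CLDN3 was near equal at 2831 and 3047 CPM. CLDN11, a claudin with 78.5 CPM in the non-secreting cells, had no UMI in milk-secreting cells.

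The 10 largest ratios held, besides CLDN11 and CLDN1, the lactonase PON3 at 78.0 CPM in non-secreting and 0.972 CPM in milk-secreting cells and the activin subunit gene INHBB at 51.6 and 0.648 CPM. EDN1, which encodes endothelin 1, stood at 66.8 and 0.972 CPM, and HP, haptoglobin, at 248 and 3.89 CPM. S100A9, TMEM176A, the cytidine deaminase CDA and ANKRD1 followed with ratios of 45.9 to 61.9. Up to 14 UMIs in the milk-secreting set stood behind each of these ratios except for CLDN1, with 16, so the intervals are wide, as with 80.2 (27.3 to 390) for PON3.

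Innate defence genes did not share a direction. Of 17 measured, 8 were 2-fold or more higher in non-secreting cells and 6 lower (all genes, 26.1% and 9.48%). LCN2 stood at 6585 CPM in non-secreting and 430 CPM in milk-secreting cells (15.3-fold, 14.5 to 16.2), and WFDC2 at 3201 and 140 CPM. LTF was lower, at 11487 and 19115 CPM. PIGR, the receptor that carries IgA into milk, stood at 105 and 1425 CPM, and the mucins MUC1 and MUC15 at 4.39 and 347 CPM and at 5.80 and 497 CPM. Against the same milk-secreting cells, 9 of 17 defence genes were 2-fold or more higher and 6 lower in LCN2-rich cells (all genes, 21.5% and 10.8%), and 1 of 15 higher and 11 lower in LCN2-poor cells (all genes, 23.9% and 15.1%). Both contrasts share the milk-secreting cells, and the list holds LCN2, which had defined the subgroups.

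**Figure D5:**
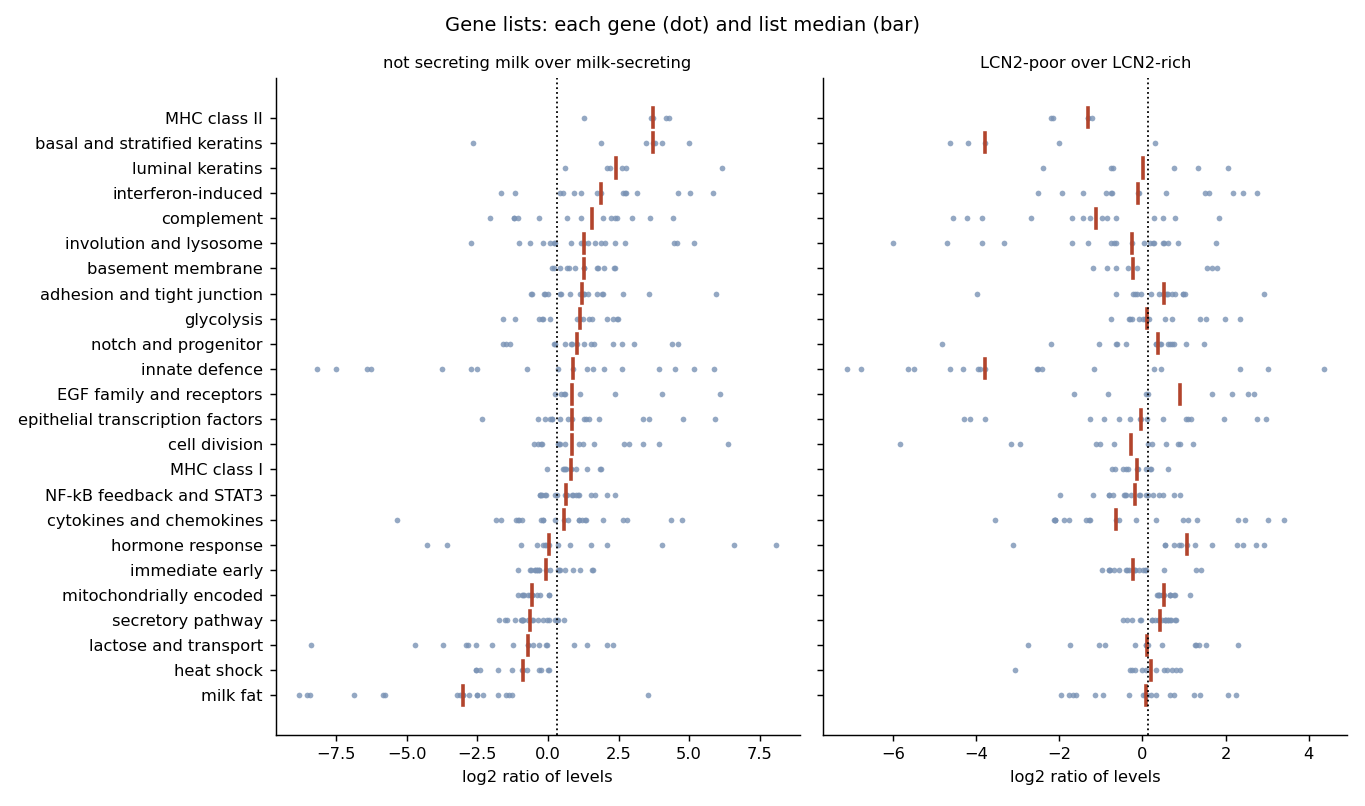
Log2 ratio of levels for each measured gene (dots) of 24 lists, with the list median (bar): left, non-secreting luminal over milk-secreting cells; right, LCN2-poor over LCN2-rich cells. The dotted line is the median of all genes (0.30 and 0.13). Milk fat lies at -3.00 on the left. Innate defence, a list that holds LCN2, lies at -3.79 on the right.

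All 5 measured genes of the MHC class II list were 2-fold or more higher than in milk-secreting cells, with CD74 at 373 and 29.2 CPM and BOLA-DRA, an MHC class II chain, at 178 and 9.72 CPM. The BOLA-DRA level leaned on the mixed clusters, with 378 CPM in E3, against 44.1 CPM in LCN2-poor and 111 CPM in LCN2-rich cells. In T cells these genes stood at 367 and 297 CPM. CD74 was found in 7.14% of thinned LCN2-poor cells, close to the 6.77% of T cells, and in 31.6% of thinned LCN2-rich cells. Of 11 MHC class I genes 3 were higher, a share near the 26.1% of all genes, and none lower; BOLA stood at 6485 CPM in non-secreting and 1813 CPM in milk-secreting cells. Against T cells, 4 of 12 class I genes were 2-fold or more lower and none higher (all genes, 18.3% and 26.8%). Of 14 complement genes, 8 were higher and 4 lower than in milk-secreting cells (all genes, 26.1% and 9.48%). CFI, complement factor I, stood at 151 and 6.81 CPM, CLU, the chaperone clusterin, at 3360 and 641 CPM, and C3 at 581 and 1333 CPM.

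Of 15 interferon-induced genes, 10 were higher in non-secreting cells and 2 lower (all genes, 26.1% and 9.48%). OAS1Y, a 2'-5'-oligoadenylate synthetase gene, stood at 28.2 and 0.324 CPM, the second value from 1 UMI, but ISG15, a ubiquitin-like protein, stood at 98.0 and 309 CPM. Of 23 cytokine and chemokine genes, 10 were higher and 6 lower. CCL2, which attracts monocytes, stood at 537 CPM in non-secreting and 19.8 CPM in milk-secreting cells, and CXCL3 at 5090 and 10709 CPM. The median of this list lay 0.28 above that of all genes, and 0.17 below it without likely doublets.

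Genes of other roles followed, where 26.1% of all genes were 2-fold or more higher and 9.48% lower. Of 17 epithelial transcription factors, 8 were 2-fold or more higher and 1 lower. FOXA1 stood at 37.1 CPM in non-secreting and 2.92 CPM in milk-secreting cells, and ELF5 was the exception at 589 and 2987 CPM. Of 17 Notch and progenitor genes, 9 were higher and 3 lower. NOTCH3, a Notch receptor, stood at 37.8 and 1.62 CPM, ALDH1A3 at 43.3 and 1.62 CPM, and CD24, a surface glycoprotein, at 912 and 2327 CPM. Of 15 glycolysis genes, 9 were higher and 2 lower. LDHA, the lactate dehydrogenase A subunit, stood at 56.9 and 10.1 CPM and LDHB, the B subunit, at 235 and 535 CPM. Of 19 involution and lysosome genes 11 were higher and 2 lower, among them MMP7, a matrix protease, at 80.9 and 3.24 CPM and IGFBP5, an IGF-binding protein of involuting glands in rodents, at 64.4 and 1.62 CPM. IGFBP5 stood at 552 CPM in the mixed cluster E8 and at 31.65 CPM in LCN2-rich cells.

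Of 2935 genes that reached 50 CPM and 20 UMIs in either set, 433 (14.8%) were 4-fold or more higher in non-secreting luminal cells than in T cells and 295 (10.1%) lower. EPCAM, KRT8 and KRT18 were among the 433, as the rules for the cell sets had fixed, and EPCAM is on the adhesion list. All 19 adhesion and junction genes and 16 of 17 epithelial transcription factors were 2-fold or more higher than in T cells. Over all genes, 26.8% were higher and 18.3% lower. GATA3, which T cells also use, was the factor that did not pass, at 83.1 CPM in non-secreting and 66.6 CPM in T cells. Of 19 milk fat genes 8 were higher and 3 lower, and of 20 genes of protein entry into the endoplasmic reticulum none passed 2-fold in either direction.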

How the data were processed

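The files hold unnormalized UMI counts of genes in barcodes, as the authors deposited them. The submitters' processing notes name Cell Ranger 3.1.0. The genome build and annotation were not given in the sources used here; coordinates and sequences are therefore not printed. The files pair 27270 gene IDs with symbols, and lists were matched by symbol; symbols held by several IDs were left out. A stranded count setting is not stated, so overlapping and paralogous genes (SAA3 and M-SAA3, BOLA) may share reads.

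The members, the rule and all gene lists were chosen with earlier results of these data known. Clusters were made with scanpy 1.11.5 and python-igraph 0.11.9 (counts scaled to 10000 per cell and logged, 2000 variable genes, 20 components, 15 neighbours, Leiden resolution 0.5, seed 1). No name was given to a cluster. The limits for mixed and LCN2-poor clusters, and the 5 division genes, were set after the clusters had been seen. Ratios of summed counts were scaled without the 7 milk genes, with exact conditional binomial intervals; shares have Clopper-Pearson intervals and summed counts Poisson intervals, all at 95%. Log2 ratios used a prior count of 0.5. A gene with 0 UMIs in a set was set against a floor of 3 UMIs. Genes were named as the 10 largest ratios in each direction past 4-fold among genes reaching 50 CPM and 20 UMIs in either set, as list genes with the highest level or largest ratio, and as leading genes of clusters at 50 CPM. Mitochondrially encoded, ribosomal and the 7 milk genes were not named by ratio. Comparisons within lists were restricted to genes with 20 or more UMIs in the compared sets.

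Doublets were not removed, as the rule does not ask for it. Scrublet, as run by scanpy, marked 266 of 14907 barcodes (1.78%) by its automatic threshold, and the highest scores were marked instead up to 0.8% per 1000 barcodes (1778 barcodes). The ratio script was tested on simulated data. The alternatives concerned the cell rule, scaling, limits, thinning depth and clustering.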

Additional observations from a re-analysis of the deposited data

How the results depend on the processing

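With 1 library no result could be checked in a replicate, and no paired analysis was possible because no groups with shared replicate numbers were compared. Of 19 settings tried, none turned the direction of a named gene against milk-secreting cells, where a setting recomputed its ratio. Ratios of LCN2-poor over LCN2-rich cells were not recomputed under any setting. The 666 cells became 600 with 10 or more UMIs of the 3 epithelial genes, 582 without likely doublets, 513 without the mixed clusters (chosen after seeing the data) and 149 when cells with 2 or more UMIs of other lineages were left out. CSN3 per CSN2 was 1.81 at 10 or more UMIs, 1.69 at 3 or more and 1.78 under 5% milk UMIs. The clusters numbered 5 at resolution 0.3 and 3 without cells holding other lineages; in that last set the LCN2-poor share was 0%, where 75 of the 158 LCN2-poor cells are lost to DCN alone. It was 28.5% without the mixed clusters. Genes 4-fold higher and lower than in milk-secreting cells numbered 1427 and 35 when scaled to all UMIs, and 63 and 77 at 200 CPM and 50 UMIs. At 20 CPM and 10 UMIs, 383 were higher. Against T cells the counts were 797 and 482 at 20 CPM, and 128 and 88 at 200 CPM. Of 288 list medians 284 moved by less than 0.5 on the log2 scale. Of 240 ratios of named genes 199 stayed within the interval of the gene's own ratio, and these intervals differ in width between genes. Of 120 marker shares 93 stayed within their intervals. The median of the cytokine list against all genes was 0.28, but -0.17 without doublets and -0.05 without mixed clusters; that of the hormone list was -0.28, but 0.02 with each cell weighing the same. The cause was not tested. In shallow T cells a low gene can be missed, so shares near 1 UMI are not read.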

Other observations

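Against milk-secreting cells, 26.1% of all genes were 2-fold or more higher in non-secreting cells and 9.48% lower. Of 12 heat shock genes, 5 were 2-fold or more lower in non-secreting cells and none higher (median log2 ratio -0.89). Of 19 immediate early genes 3 were higher and 1 lower (median -0.06). Of 13 mitochondrially encoded genes 1 was lower and none higher (median -0.58). All of 13 basement membrane genes were measured, and 7 were higher and none lower (median 1.26). AGRN, the proteoglycan agrin, stood at 52.3 CPM in non-secreting and 13.0 CPM in milk-secreting cells.

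The glucose transporter gene SLC2A1 stood at 238 CPM in LCN2-poor and 48.2 CPM in LCN2-rich cells, and the amino acid transporter gene SLC38A2 at 657 and 257 CPM. The fatty acid receptor gene CD36 stood at 200 CPM in LCN2-poor and 48.2 CPM in LCN2-rich cells, against 659 CPM in milk-secreting cells. IRF7, a regulator of interferon genes, stood at 217 and 47.7 CPM in LCN2-poor and LCN2-rich cells, with 332 CPM in E4 and 70.1 CPM in E6. LCN2-poor cells had a median mitochondrial share of 6.33%, against 4.16% in LCN2-rich cells, and a median of 7399.5 UMIs, against 13221.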
